A study of Mus musculus with 18 samples.

Results

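The conjugating enzymes and carboxylesterases of intestinal epithelium were examined in mouse colon organoids. The set was taken from gene names: every protein-coding gene of the deposited table whose symbol begins with Ugt1, Ugt2, Gsta, Gstm, Gstp, Gstt, Gsto, Gstz, Gstk, Mgst, Sult, Ces1 or Ces2. This gave 81 genes of 21970 protein-coding genes and 56748 genes in all. Of the 81, 43 reached an FPKM (fragments scaled by gene length and library size) of at least 1 in at least 3 of 18 libraries and are described here. The other 38 stayed below that level, with 18 of them at 0 reads in every library and a highest value of 1.37 FPKM, for Ugt2b35. Of the 43, 34 reached the level in control libraries, and the other 9 did so only with differentiation libraries counted: Ces1d, Ces2b, Gsta2, Gsto2, Sult1a1, Ugt1a1, Ugt1a6a, Ugt2b36 and Ugt2b5.

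Organoids, which are three-dimensional epithelial cultures, had been grown from proximal, mid and distal mouse colon. From 3 days after passaging they were kept either in ENR with Wnt3a-conditioned medium (the control, a proliferative state) or in a differentiation medium, whose recipe is not given in the labels. Poly-A RNA was sequenced from 3 libraries for each region and medium, 18 in all, and the series title names regional identity of the colon as the subject. No genetic change or other treatment is named in the labels, nor are strain, age or number of animals, and nothing says that replicates came from separate animals or cultures, so p-values measure only the spread between these libraries.

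These enzymes form the defence of the gut lining against foreign and endogenous small molecules. Carboxylesterases hydrolyse esters and amides, including prodrugs and glycerides, in the lumen of the endoplasmic reticulum. UDP-glucuronosyltransferases (Ugt) attach glucuronic acid taken from UDP-glucuronate, cytosolic sulfotransferases (Sult) attach sulfate taken from PAPS, and glutathione transferases (Gst, and the membrane-bound Mgst) attach glutathione or use it to reduce peroxides. The products are more soluble in water and leave the cell through export pumps. In the intestine many of these enzymes are known for higher levels in mature absorptive cells than in the crypt base.

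Recovered depth was 12827751 to 19938198 reads per library, and values of replicates correlated at 0.953 to 0.990 across genes. Summed FPKM of the epithelial markers Epcam, Cdh1 and Krt8 was 1662 to 5717 in every library, and fibroblast, immune and endothelial marker sums did not exceed 0.663. Colonocyte markers (Krt20, Car1, Aqp8, Slc26a3, Car4) summed to 282 to 2147 in control and 12965 to 23179 in differentiation libraries, mostly from Car1. Goblet cell markers (Tff3, Muc2, Fcgbp) moved with the medium as well, from sums of 36.0 to 113 up to 664 to 991 in proximal, from 178 to 283 up to 862 to 1575 in mid and from 74.7 to 118 up to 807 to 1048 in distal organoids, and the part of goblet cells in the differences between the media was not tested. Crypt markers (Lgr5, Axin2, Ascl2, Mki67) summed to 34.4 to 71.5 in control and 0.964 to 16.5 in differentiation libraries. Proximal differentiation replicate 1 stood apart from its group, with the crypt sum of 16.5 and a score of 5.80 on the first principal component, against 44.1 and 37.9 in replicates 2 and 3. Calls that change without it are given both ways in the comparisons of medium, of proximal with distal organoids and of the responses. In bulk RNA, more cells of a type and more RNA per cell cannot be told apart.

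Many of these genes lie in clusters of similar copies, and reads can be shared within a cluster. On mm39, the build of the deposited table, the Ces2 genes lie at chr8:105460635-105747810, the mu class Gstm genes at chr3:107803137-107952210 and Gsta1, Gsta2, Gsta4 and Gsta5 at chr9:78090056-78263070. The Ugt1a genes, at chr1:87983110-88147724, join different first exons to the same 3′ exons, and the Ugt2 genes lie at chr5:87037626-87638730. Among stretches of 100 bases of each gene's transcript (GENCODE M21, GRCm38), the share found exactly in another gene was 100% for Ugt1a6a, 68.8% for Ugt1a7c, 57.2% for Ugt1a1, 81.8% for Gsta1, 35.0% for Gsta2, 63.5% for Gstp2 and 52.8% for Gstp1. It was 24.7% for Ugt2b5, 23.9% for Gstt3, 16% for Ces2c, 13.8% for Gstm3, 10.7% for Ces2a and at most 7.73% for the others matched. The sources used here do not say how reads in such stretches were assigned, so the values of those genes are uncertain to that extent. Gsta3, Gstm5, Gsto1, Gsto2, Gstz1, Sult1a1, Sult2b1, Ugt1a1, Ugt1a6a and Ugt1a7c overlap at least 1 gene on the opposite strand. The labels leave open whether counting used strand.

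The promoter letters of the genes that moved most, and of close copies that moved together, are shown here because several differences described below were between neighbouring gene copies. Sequences are the 250 bases before the RefSeq gene start on GRCm38.p6, 5′ to 3′ on the gene's strand, and 38 of the 43 genes had an entry. Ces2a was at chr8:104733753-104734002 (forward strand), Ces2c at chr8:104846818-104847067 (forward strand) and Ces2e at chr8:104926010-104926259 (forward strand). Capitals mark the longest runs (7 bases) common to all 3 windows, each at its first occurrence, namely GAGGCCA, then GAACTTT and also TTCCTGC.
Ces2a: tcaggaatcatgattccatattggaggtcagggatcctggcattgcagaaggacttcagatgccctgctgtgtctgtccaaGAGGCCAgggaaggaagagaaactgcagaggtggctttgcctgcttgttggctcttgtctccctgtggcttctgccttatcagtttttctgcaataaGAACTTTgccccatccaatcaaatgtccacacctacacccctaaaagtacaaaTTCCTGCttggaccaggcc
Ces2c: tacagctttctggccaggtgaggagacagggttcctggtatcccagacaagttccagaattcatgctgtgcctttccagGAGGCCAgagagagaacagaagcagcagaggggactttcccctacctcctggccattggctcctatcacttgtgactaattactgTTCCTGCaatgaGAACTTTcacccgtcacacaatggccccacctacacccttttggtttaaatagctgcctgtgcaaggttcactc
Ces2e: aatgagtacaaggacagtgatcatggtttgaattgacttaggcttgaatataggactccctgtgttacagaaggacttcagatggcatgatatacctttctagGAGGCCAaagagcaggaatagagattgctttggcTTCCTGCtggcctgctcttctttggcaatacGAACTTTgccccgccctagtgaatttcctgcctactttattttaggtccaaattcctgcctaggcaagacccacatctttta
On either strand GAACTTT was in 3.28% of the 32851 promoter windows of this length, GAGGCCA in 6.56% and TTCCTGC in 7.28%, and each was in windows of 6 described genes, the 3 Ces2 genes included. The 250-base windows were aligned end to end with gaps allowed, and matches were divided by alignment length, gaps included. Ces2a matched Ces2c at 67.0% and Ces2e at 57.3% of alignment positions, and Ces2c matched Ces2e at 54.4%. Unrelated pairs among the windows shown matched at 47.7% to 54.1%.

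Gsta1 lay at chr9:78230419-78230668 (forward strand) and Gsta2 at chr9:78347146-78347395 (reverse strand), 2 alpha class genes that had the same direction in each medium comparison. Capitals mark the longest run they share, 29 bases.
Gsta1: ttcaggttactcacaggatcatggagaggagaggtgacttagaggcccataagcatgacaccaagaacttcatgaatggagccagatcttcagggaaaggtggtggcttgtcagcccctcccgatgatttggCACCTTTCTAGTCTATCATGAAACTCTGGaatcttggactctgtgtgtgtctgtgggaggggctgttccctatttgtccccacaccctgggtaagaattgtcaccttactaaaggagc
Gsta2: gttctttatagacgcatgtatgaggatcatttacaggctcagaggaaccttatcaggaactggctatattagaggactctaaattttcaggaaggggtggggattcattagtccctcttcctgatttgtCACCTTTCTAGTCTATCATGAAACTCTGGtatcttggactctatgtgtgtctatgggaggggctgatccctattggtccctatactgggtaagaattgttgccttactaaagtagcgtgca
The windows matched at 71.4% of alignment positions, and the run was found in 3 of 32851 windows, those of Gsta1, Gsta2 and Gm3776. Gm3776 is also the gene with which Gsta1 shares most transcript stretches.

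Ugt1a1 at chr1:88211709-88211958 (forward strand) and Sult1d1 at chr5:87569007-87569256 (reverse strand) are shown for a match to GTTAATNAT, letters of the element of HNF1, a transcription factor of gut and liver epithelium. Capitals mark the match, which lies on the opposite strand in Ugt1a1.
Ugt1a1: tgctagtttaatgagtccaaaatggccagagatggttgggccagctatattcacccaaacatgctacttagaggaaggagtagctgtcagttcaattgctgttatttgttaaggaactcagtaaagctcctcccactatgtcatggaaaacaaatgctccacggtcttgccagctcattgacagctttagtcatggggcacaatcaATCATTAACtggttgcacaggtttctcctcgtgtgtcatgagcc
Sult1d1: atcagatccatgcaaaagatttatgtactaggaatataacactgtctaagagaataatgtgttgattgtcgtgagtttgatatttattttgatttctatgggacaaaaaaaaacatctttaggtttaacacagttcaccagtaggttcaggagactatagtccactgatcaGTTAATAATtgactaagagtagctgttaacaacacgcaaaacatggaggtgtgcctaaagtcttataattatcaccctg
That element was found in 0.737% of all windows (either strand) and in 2 of the 49 windows of the described genes. The antioxidant response element TGACNNNGC was found in 10.2% of all windows and in 4 of the 49 (Gsta3, Gstm5, Gstm7 and Mgst1). The xenobiotic response element TTGCGTG was found in 0.925% and in 1 of the 49 (Sult1d1), the CDX element TTTATGG in 2.43% and in 1 (Gstm6), and the HNF4 element CAAAGTCCA in 0.384% and in 0. A match is a description of letters and not of binding, and an absent match says nothing of the factor.

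The first question was how these genes differ between the media in each region. In proximal organoids 27 of the 43 genes were higher in differentiation medium and 0 were lower, where 27.6% of the 12896 tested genes were higher and 26.2% lower. A gene was called where limma's two-sided moderated test on log2(FPKM + 1), adjusted by Benjamini-Hochberg over all tested genes, gave a p below 0.05. At an unadjusted p below 0.05, 28 were higher and 0 lower. In mid organoids 26 were higher and 4 lower (31.5% and 32.0% of tested genes), and in distal organoids 26 were higher and 3 lower (31.6% and 31.3%). The 9 genes that reached 1 FPKM only with differentiation libraries counted passed the filter through them, which favours a higher level there. Their rises between the media, with the adjusted p given below, are therefore a description. Among the other 34, the proximal comparison called 20 higher and 0 lower, the mid one 18 and 4, and the distal one 20 and 3. The median log2 fold change of the 43 was 1.39, 0.94 and 0.96 in the proximal, mid and distal comparison, against -0.01, 0.00 and 0.00 over tested genes. Scaled to summed reads, those medians over tested genes moved to -0.25, -0.33 and -0.34, and the higher share of calls over tested genes from 51.4% to 31.5%, 49.7% to 29.1% and 50.2% to 28.2%. The counts of the 43 were then 24 higher and 1 lower, 23 and 5, and 21 and 4. Without proximal differentiation replicate 1, the proximal counts were 26 higher and 2 lower, the 2 being Gstm1 (log2 fold change -1.75, adjusted p = 0.0104) and Gstm7 (-0.69, adjusted p = 0.045).

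**Figure D1:**
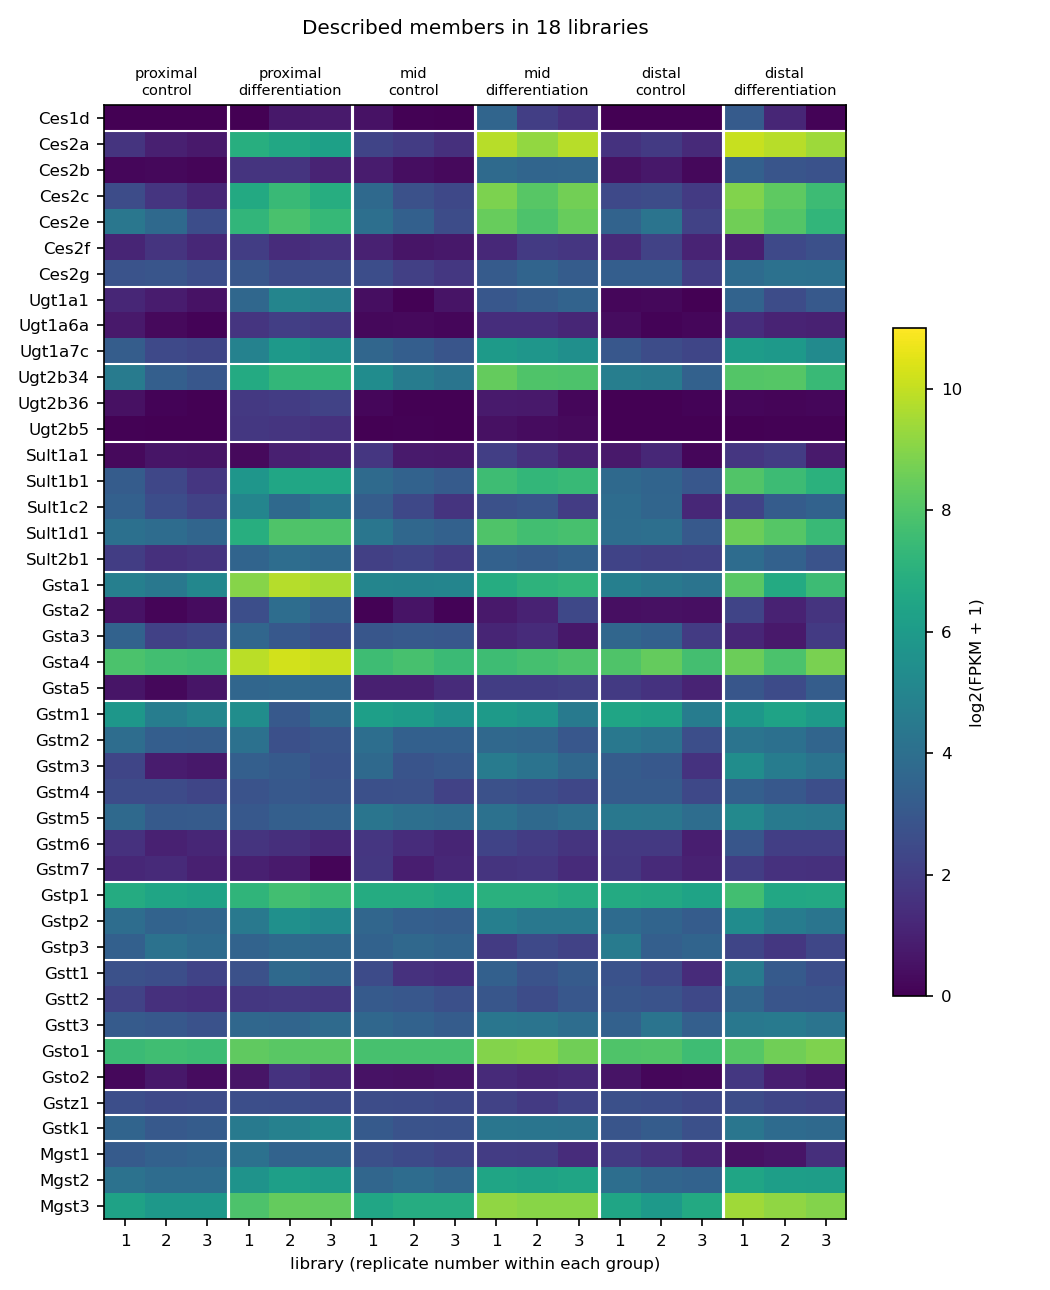
Level of each of the 43 described genes (rows, grouped by family) in each of 18 libraries (columns, grouped by region and medium, numbered by replicate); colour is log2(FPKM + 1), from 0 (dark) upwards. Ces2a, Ces2c and Ces2e turn from dark to bright between the media in all regions, and Gsta1 and Gsta4 are brightest in the proximal differentiation libraries.

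The same 21 genes were higher in all 3 regions: Ces2a, Ces2b, Ces2c, Ces2e, Gsta1, Gsta2, Gsta5, Gstk1, Gsto1, Gsto2, Gstp2, Gstt3, Mgst2, Mgst3, Sult1b1, Sult1d1, Sult2b1, Ugt1a1, Ugt1a6a, Ugt1a7c and Ugt2b34. The share of all tested genes higher in all 3 regions was not computed, so this is a list and not a result about the set. Of the 21, Ces2b, Gsta2, Gsto2, Ugt1a1 and Ugt1a6a passed the filter through differentiation libraries. Ces1d, Ces2g and Gstt1 were called in mid and distal comparisons, Ugt2b36 and Ugt2b5 in proximal and mid ones, and Gstm3 in proximal and distal ones. Gsta4, Gstp1 and Sult1c2 were called in the proximal comparison and Gstm6 in the distal one. Lower calls fell on Gsta3, Gstp3 and Mgst1 (mid and distal) and on Gstz1 (mid). Ces2f, Gstm1, Gstm2, Gstm4, Gstm5, Gstm7, Gstt2 and Sult1a1 were called in none.

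**Figure D2:**
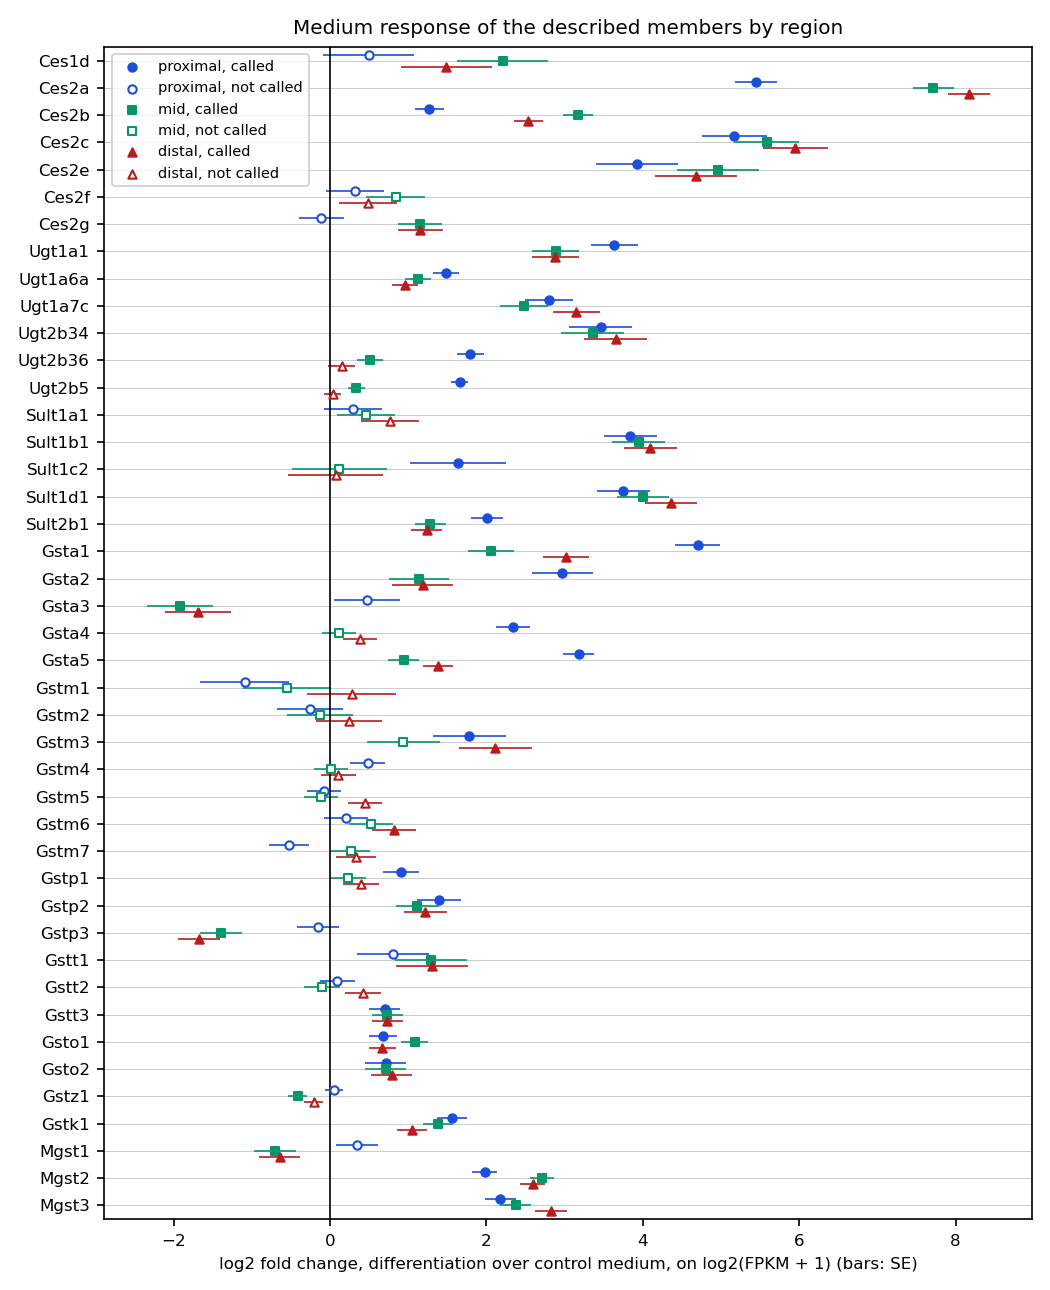
Log2 fold change of differentiation over control medium, on log2(FPKM + 1), for each described gene in proximal (circles), mid (squares) and distal (triangles) organoids; bars are SE of the fit, filled symbols are called and open ones are not. Ces2a lies furthest to the right at 5.44, 7.72 and 8.17, and Gsta3 furthest to the left at -1.92 in mid organoids.

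The Ces2 carboxylesterases, intestinal hydrolases of esters, amides and glycerides, included the gene with the largest rise between the media in each region, Ces2a. Their summed level (7 genes) went from 23.9 ± 10.1 FPKM under control to 419 ± 80.1 under differentiation medium in proximal organoids (SD, n = 3). Mid organoids went from 24.9 ± 12.3 to 1520.1 ± 323, and distal ones from 25.7 ± 13.1 to 1508 ± 472 FPKM. The control sums of the regions overlapped, while the proximal differentiation sum lay below every mid and distal one.

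Ces2a stood at 2.18, 0.981 and 0.709 FPKM in proximal control libraries 1, 2 and 3, at 3.74, 2.88 and 1.89 for mid and at 2.09, 2.61 and 1.49 for distal control. Its differentiation levels were 119, 96.9 and 74.8 FPKM for proximal, 905, 599.5 and 908 for mid and 1082, 912 and 674 for distal libraries. Every differentiation library lay above every control library, and proximal differentiation libraries lay below all mid and distal ones. Mean level was 75 times the control mean in proximal, 284 times in mid and 431 times in distal organoids. On log2(FPKM + 1) the change was 5.44 ± 0.27, adjusted p = 3.27e-09 in proximal organoids (SE, as in all fold changes below), 7.72 ± 0.27 in mid (adjusted p = 4.51e-11) and 8.17 ± 0.27 in distal ones (adjusted p = 3.2e-11). Ces2a took 5.23% ± 1.22, 12% ± 1.99 and 9.03% ± 3.10 of the Ces2 sum in proximal, mid and distal control libraries. In differentiation medium the shares were 23.5% ± 6.53, 52.8% ± 1.13 and 60.0% ± 5.20, so Ces2a held most of the sum in mid and distal but not in proximal organoids.

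Under control medium, Ces2c read 4.87, 2.28 and 1.30 FPKM (proximal), 12.4, 5.62 and 4.19 (mid) and 4.35, 4.95 and 2.60 (distal). Under differentiation medium the readings were 102, 174 and 114 (proximal), 454, 280.3 and 398 (mid) and 482, 304 and 184 FPKM (distal). The media did not overlap in any region. The rise of Ces2c was 5.17 ± 0.41, adjusted p = 2.34e-07 in proximal, 5.58 ± 0.41 (adjusted p = 5.07e-08) in mid and 5.95 ± 0.41 (adjusted p = 3.14e-08) in distal organoids. Control libraries held Ces2e at 19.3, 12.4 and 5.07 FPKM when proximal, 15.4, 9.45 and 4.86 when mid and 10.3, 17.7 and 3.48 when distal. Differentiation libraries held it at 149.9, 231 and 166 (proximal), 352, 245 and 349 (mid) and 392, 266 and 152 FPKM (distal). Ces2e was the most abundant Ces2 gene in control libraries, at 48.4% ± 10.1 of the sum in proximal ones, and again no differentiation library reached down to a control library. It rose by 3.93 ± 0.53, adjusted p = 2.92e-05 in proximal, 4.96 ± 0.53 (adjusted p = 1.7e-06) in mid and 4.68 ± 0.53 (adjusted p = 3.21e-06) in distal organoids on the log2 scale.

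The rarer Ces2 genes behaved unequally. For Ces2b, the proximal controls gave 0.151, 0.190 and 0.105 FPKM, the mid controls 0.765, 0.330 and 0.210 and the distal controls 0.419, 0.645 and 0.181. With differentiation medium, proximal libraries gave 2.14, 2.13 and 1.16 FPKM, mid libraries 12.8, 11.1 and 11.4 and distal libraries 9.34, 6.53 and 5.92. Ces2b passed the filter through differentiation libraries, so its rise is a description. It was 1.27 ± 0.19, adjusted p = 7.15e-05 in proximal, 3.17 ± 0.19 (adjusted p = 6.51e-09) in mid and 2.54 ± 0.19 (adjusted p = 6.37e-08) in distal organoids. Ces2g spanned 5.02 to 6.47 FPKM under proximal control and 4.69 to 6.63 under proximal differentiation medium, which overlap (-0.11 ± 0.29, adjusted p = 0.764). Distal libraries spanned 2.96 to 8.71 FPKM under control and 13.2 to 16.2 under differentiation medium (1.15 ± 0.29, adjusted p = 0.00249). Mid ones spanned 2.39 to 5.01 and 7.95 to 10.7 (1.15 ± 0.29, adjusted p = 0.00246). Ces2f had group means of 0.738 to 3.57 FPKM with overlapping media in proximal and distal libraries, and it passed the threshold in no region.

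**Figure D3:**
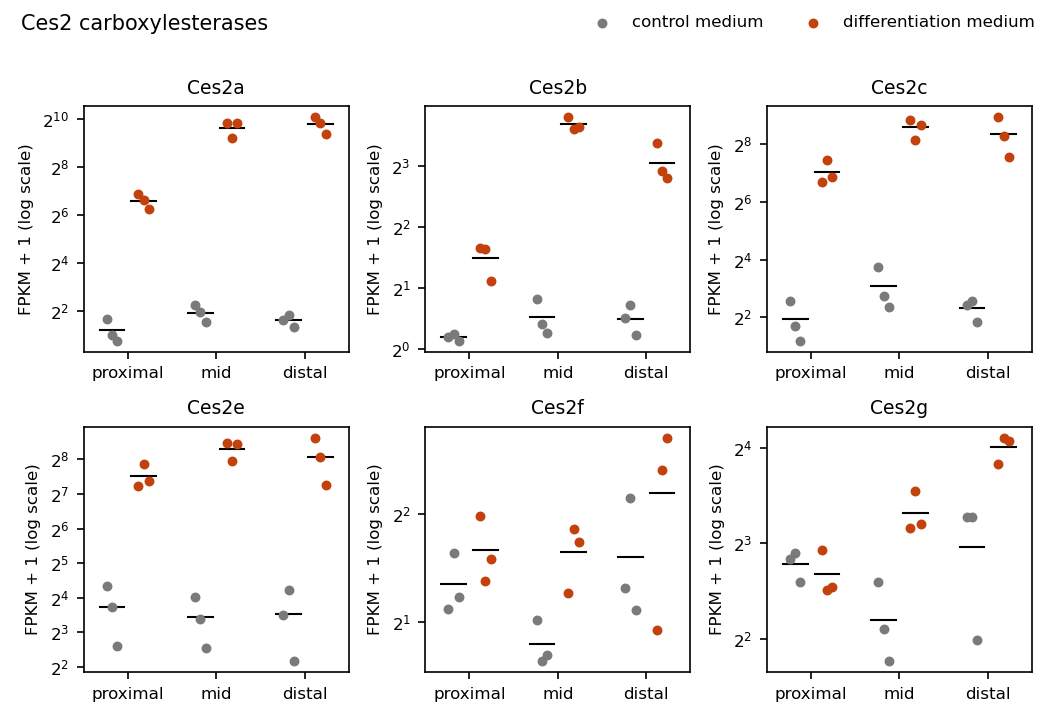
FPKM + 1 on a log axis for the 6 described Ces2 genes in each library, by region, with control medium in grey and differentiation medium in orange; each point is 1 library and each bar the mean of 3. The orange points of Ces2a and Ces2b sit lower in proximal than in mid and distal organoids, while those of Ces2e overlap between proximal and distal ones.

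Ces1d, a triacylglycerol hydrolase, was the only one of 8 Ces1 genes to reach the level described. Levels of Ces1d without differentiation were 0, 0.0195 and 0 FPKM (proximal), 0.440, 0.0431 and 0 (mid) and 0, 0 and 0 (distal). After differentiation they were 0, 0.640 and 0.737 (proximal), 11, 3.10 and 2 (mid) and 7.83, 1.28 and 0.0916 FPKM (distal). The rise was called in mid (2.21 ± 0.58, adjusted p = 0.00373) and distal organoids (1.48 ± 0.58, adjusted p = 0.0358) but not in proximal ones (0.49 ± 0.58, adjusted p = 0.493). Ces1d also passed the filter through differentiation libraries, so these values are a description. Distal control libraries held 0 reads, so with a floor of 3 reads over that group the distal mean was at least 142-fold higher, which covers counting error only. The distal libraries spread widely, and the distal call is lost without distal control replicate 1, 2 or 3 or differentiation replicate 1 (adjusted p 0.0691 to 0.234).

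Among the glucuronosyltransferases, the most abundant were Ugt1a7c and Ugt2b34. The summed Ugt1 level moved from 6.72 ± 3.11 FPKM under control to 70.4 ± 25.1 under differentiation medium for proximal, from 9.37 ± 2.42 to 63.9 ± 7.63 for mid and from 5.52 ± 1.63 to 63.9 ± 17 for distal organoids (SD, n = 3). Ugt1a7c stood at 8.34, 4.34 and 3.98 FPKM in proximal control libraries 1, 2 and 3, at 11.4, 8.68 and 6.51 for mid and at 6.88, 4.87 and 3.98 for distal control. Its differentiation levels were 28.7, 58.3 and 46.5 FPKM for proximal, 62.5, 53.9 and 44.2 for mid and 67.3, 60.6 and 37.4 for distal libraries. The media did not overlap, and the regions did overlap within each medium. The rise of Ugt1a7c was 2.80 ± 0.30, adjusted p = 4.21e-06 in proximal, 2.48 ± 0.30 (adjusted p = 6.45e-06) in mid and 3.15 ± 0.30 (adjusted p = 8.29e-07) in distal organoids.

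Ugt1a1, the enzyme that conjugates bilirubin, was at 1.24 FPKM or below in every control library. Its differentiation values were 11.8, 31.1 and 26.3 FPKM (proximal), 6.84, 8.54 and 10.2 (mid) and 10.4, 4.81 and 7.29 (distal), so the proximal ones lay above all others. It rose by 3.64 ± 0.30, adjusted p = 3.45e-07 in proximal, 2.89 ± 0.30 in mid (adjusted p = 1.54e-06) and 2.88 ± 0.30 in distal organoids (adjusted p = 1.71e-06). Ugt1a6a, a phenol-conjugating form all of whose transcript is shared with other Ugt1a genes, went from 0.332 ± 0.315 to 2.68 ± 0.427 FPKM in proximal organoids (1.49 ± 0.17, adjusted p = 5.43e-06). It was 1.59 and 1.27 FPKM in mid and distal differentiation medium. Ugt1a1 and Ugt1a6a passed the filter through differentiation libraries, so their rises are a description.

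The Ugt2b enzymes, which conjugate steroids and bile acids, split. Under control medium, Ugt2b34 read 22.8, 9.15 and 6.86 FPKM (proximal), 39.4, 23.6 and 18.5 (mid) and 24.9, 22.8 and 9.65 (distal). Under differentiation medium the readings were 104, 155 and 155 (proximal), 337, 252 and 242 (mid) and 268, 276 and 174 FPKM (distal). The media were apart in every region, with rises of 3.46 ± 0.40, adjusted p = 8.18e-06 in proximal, 3.36 ± 0.40 (adjusted p = 5.4e-06) in mid and 3.65 ± 0.40 (adjusted p = 2.79e-06) in distal organoids. Ugt2b5 reached 2.46, 2.23 and 1.97 FPKM in proximal differentiation libraries, 0.196 to 0.388 in mid and 0 to 0.0389 in distal ones, with control values of at most 0.0550. Ugt2b36 likewise reached 2.55, 2.91 and 3.50 FPKM in proximal, 0.147 to 0.733 in mid and 0.117 to 0.150 in distal differentiation libraries. Both reached 1 FPKM in the 3 proximal differentiation libraries and in no other, so their higher level there was fixed by the filter on low values. As a description, the proximal difference between the media was 1.66 ± 0.11 for Ugt2b5 and 1.79 ± 0.17 for Ugt2b36 on the log2 scale, and neither passed the threshold in distal organoids (adjusted p = 0.805 and 0.47). Their mid calls were lost without mid differentiation replicate 1 for Ugt2b5 (adjusted p = 0.0691), and without that library, mid differentiation replicate 2 or mid control replicate 3 for Ugt2b36 (0.0506 to 0.0753). In distal control medium Ugt2b5 had 0 reads and in distal differentiation medium its mean was below the floor of 3 reads, so no fold is given there.

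The sulfotransferases summed over 21 genes to 27.9 ± 8.47 FPKM for proximal control and 316 ± 86.7 for proximal differentiation medium (SD, n = 3). For mid organoids the sums were 34 ± 11.8 against 413 ± 45.5, for distal ones 35.6 ± 13.9 against 483 ± 161. Sult1d1, which sulfates catecholamines, and Sult1b1, which sulfates phenols and thyroid hormones, made up most of it. Control libraries held Sult1d1 at 15.7, 13.6 and 11 FPKM when proximal, 19.1, 11.7 and 9.79 when mid and 14.2, 15.4 and 7.42 when distal. Differentiation libraries held it at 118, 249 and 239.5 (proximal), 253, 201 and 221 (mid) and 373, 269.7 and 177 FPKM (distal). No differentiation library overlapped a control library, and the regions overlapped in both media. Sult1d1 rose by 3.75 ± 0.34, adjusted p = 6.4e-07 in proximal, 4 ± 0.34 (adjusted p = 1.77e-07) in mid and 4.36 ± 0.34 (adjusted p = 8.96e-08) in distal organoids.

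Sult1b1 went from 4.93 ± 3.07 to 78.8 ± 21.1 FPKM in proximal, from 10.3 ± 2.60 to 171 ± 18.3 in mid and from 10.1 ± 2.86 to 190.5 ± 62 in distal organoids (SD, n = 3). All 3 rises were called, at 3.84 ± 0.34, 3.95 ± 0.34 and 4.10 ± 0.34 on the log2 scale (adjusted p at most 5.47e-07). Sult2b1, which sulfates cholesterol and pregnenolone, rose by 2.01 ± 0.20, adjusted p = 2.2e-06 in proximal, 1.28 ± 0.20 in mid (adjusted p = 6.54e-05) and 1.23 ± 0.20 in distal organoids (adjusted p = 9.8e-05), from control means of 2.37 to 3.40 FPKM. Sult1c2 rose in proximal organoids by 1.64 ± 0.61, adjusted p = 0.0336, from 3.53 to 9.27 to 12.7 to 31.3 FPKM, but without proximal differentiation replicate 1 the adjusted p was 0.113. Leaving out any of 3 further libraries also ends that call (proximal control replicates 2 and 3 and proximal differentiation replicate 3, adjusted p 0.0679 to 0.115). Sult1a1, a phenol sulfotransferase, stayed at group means of 0.427 to 2.04 FPKM with no call.

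The 5 alpha class glutathione transferases summed to 242 ± 25.5 FPKM for proximal control and 1812 ± 334 for proximal differentiation medium (SD, n = 3). The mid sums were 238 ± 22.2 and 354 ± 48.4, and the distal sums 296 ± 69.5 and 555 ± 180.1. Gsta4, which conjugates the lipid peroxidation product 4-hydroxynonenal, held 86.4% ± 3 of that sum in proximal control libraries and 59.2% ± 3.38 in proximal differentiation ones.

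For Gsta4, the proximal controls gave 234, 202 and 191 FPKM, the mid controls 193, 224 and 179 and the distal controls 251, 335 and 206. With differentiation medium, proximal libraries gave 919, 1207 and 1074 FPKM, mid libraries 188, 218 and 240.0 and distal libraries 371, 235 and 442. The 3 proximal differentiation libraries lay far above the other 15, among which the media overlapped in mid and distal organoids. Gsta4 rose by 2.34 ± 0.22, adjusted p = 8.74e-07 in proximal organoids, and differed by 0.12 ± 0.22, adjusted p = 0.662 in mid and 0.38 ± 0.22, adjusted p = 0.136 in distal ones. Levels of Gsta1 without differentiation were 26.2, 20.2 and 32.9 FPKM (proximal), 31, 29.9 and 31.2 (mid) and 25.6, 21.1 and 17.9 (distal). After differentiation they were 509, 879 and 761 (proximal), 109.8, 137 and 151 (mid) and 292, 106 and 187 FPKM (distal). Gsta1 was thus higher in differentiation medium in every region, most so in proximal libraries. It rose by 4.70 ± 0.29, adjusted p = 2.91e-08 in proximal, 2.06 ± 0.29 (adjusted p = 2.48e-05) in mid and 3.02 ± 0.29 (adjusted p = 8.63e-07) in distal organoids.

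The rarer alpha class genes did not exceed 14.3 FPKM in any library. Gsta5 stood at 0.539, 0.172 and 0.556 FPKM in proximal control libraries 1, 2 and 3, at 0.927, 0.951 and 1.53 for mid and at 2.61, 2.05 and 1.15 for distal control. Its differentiation levels were 11.2, 12.3 and 11.9 FPKM for proximal, 2.99, 2.98 and 3.22 for mid and 6.62, 4.78 and 8.42 for distal libraries. The media were apart in all regions, with rises of 3.18 ± 0.20, adjusted p = 2.59e-08 in proximal, 0.94 ± 0.20 (adjusted p = 0.000667) in mid and 1.38 ± 0.20 (adjusted p = 2.69e-05) in distal organoids. Under control medium, Gsta2 read 0.437, 0.118 and 0.305 FPKM (proximal), 0.0403, 0.477 and 0.0870 (mid) and 0.377, 0.406 and 0.380 (distal). Under differentiation medium the readings were 5.27, 14.3 and 9.53 (proximal), 0.669, 1.07 and 4.17 (mid) and 3.76, 1.08 and 2.15 FPKM (distal). Gsta2 passed the filter through differentiation libraries, so its rises are a description. Gsta2 rose by 2.97 ± 0.39, adjusted p = 2.28e-05 in proximal organoids. Its smaller rises in mid (1.14 ± 0.39, adjusted p = 0.0182) and distal ones (1.18 ± 0.39, adjusted p = 0.0152) lose their calls without mid control replicate 1 or 3 or mid differentiation replicate 3 (adjusted p 0.0518 to 0.119), and without distal differentiation replicate 1 (0.0818), respectively.

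Gsta3, an alpha class enzyme known in mouse for conjugating activated aflatoxin, lies apart from the others, at chr1:21310813-21335885, and went the other way. Control libraries held Gsta3 at 9.92, 3.39 and 4.13 FPKM when proximal, 6.77, 7.44 and 6.87 when mid and 11.3, 9.28 and 2.74 when distal. Differentiation libraries held it at 11.4, 7.09 and 5.50 (proximal), 1.21, 1.59 and 0.656 (mid) and 1.28, 0.696 and 2.67 FPKM (distal). It fell in mid (-1.92 ± 0.42, adjusted p = 0.00105) and distal organoids (-1.69 ± 0.42, adjusted p = 0.00285), where no differentiation library overlapped a control one, though the lowest distal control value of 2.74 was close to the highest differentiation value of 2.67. In proximal organoids the media overlapped (0.47 ± 0.42, adjusted p = 0.368).

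**Figure D4:**
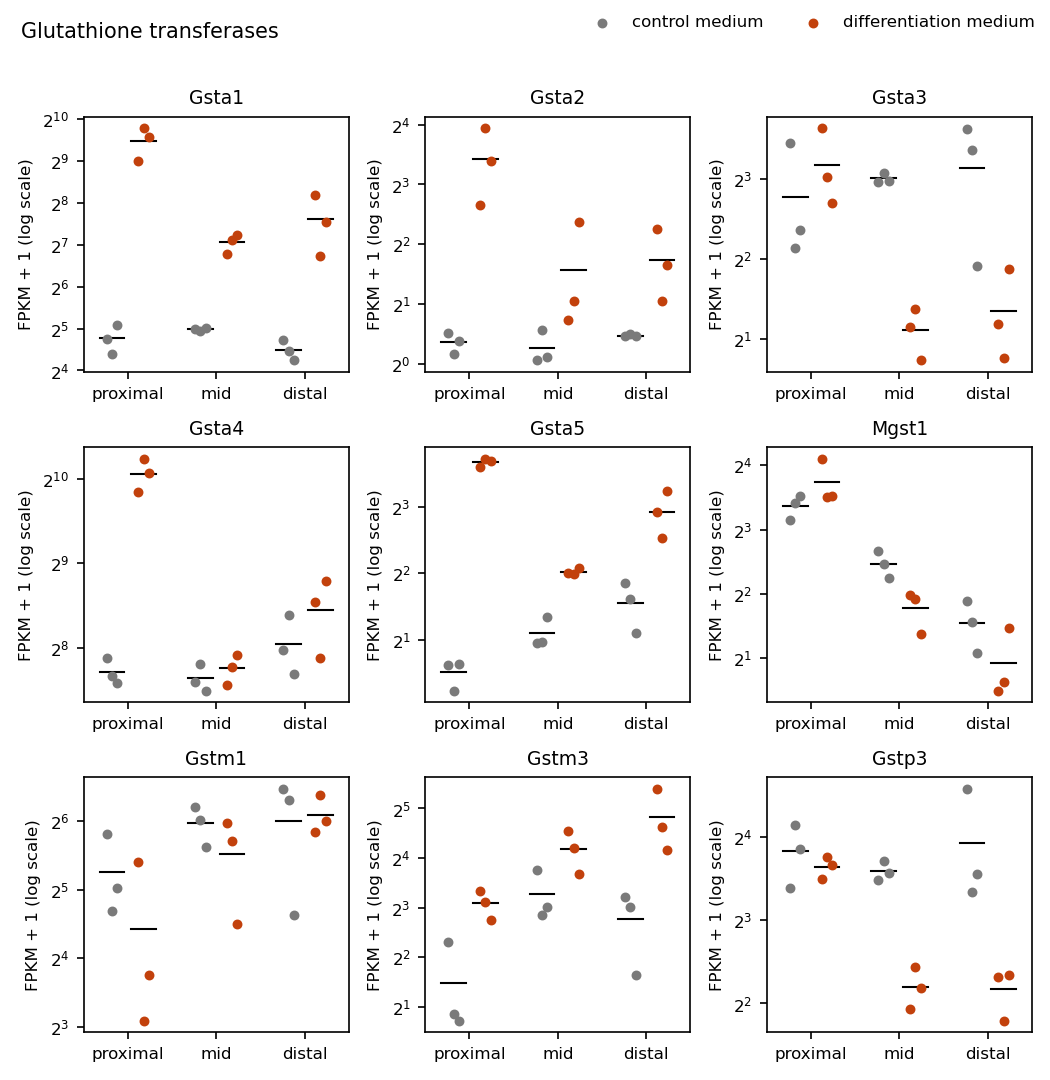
FPKM + 1 on a log axis for 9 glutathione transferases in each library, by region, with control medium in grey and differentiation medium in orange; each point is 1 library and each bar the mean of 3. The proximal differentiation points of Gsta1, Gsta2, Gsta4 and Gsta5 lie above all other points, those of Gsta3 and Gstp3 overlap the proximal control points, and Mgst1 is lower towards the distal colon in both media.

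The mu class genes, which conjugate aromatic electrophiles, mostly missed the threshold between the media. Of the 7, 1 was higher in proximal, 0 in mid and 2 in distal organoids, and 0 were lower in any. Of tested genes, 27.6%, 31.5% and 31.6% were higher in that order, and 26.2%, 32.0% and 31.3% lower. With 7 genes, these counts are no result about the class. For Gstm1, the proximal controls gave 55.3, 24.7 and 31.7 FPKM, the mid controls 72.7, 63.9 and 48.4 and the distal controls 88, 78.7 and 23.7. With differentiation medium, proximal libraries gave 41.3, 7.48 and 12.5 FPKM, mid libraries 61.9, 51.5 and 21.6 and distal libraries 56.3, 83 and 63.4. The media of Gstm1, the most abundant of the class, overlapped in every region, and its replicates varied up to several fold. Its difference was -1.09 ± 0.57, adjusted p = 0.115 in proximal, -0.55 ± 0.57, adjusted p = 0.411 in mid and 0.27 ± 0.57, adjusted p = 0.69 in distal organoids.

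Levels of Gstm3 without differentiation were 3.92, 0.812 and 0.638 FPKM (proximal), 12.6, 6.20 and 7.07 (mid) and 8.30, 7.07 and 2.09 (distal). After differentiation they were 9.10, 7.67 and 5.76 (proximal), 22.5, 17.5 and 11.8 (mid) and 41.1, 23.7 and 17 FPKM (distal). Gstm3 rose in proximal (1.78 ± 0.47, adjusted p = 0.00481) and distal organoids (2.11 ± 0.47, adjusted p = 0.00108), while the mid media overlapped (0.94 ± 0.47, adjusted p = 0.0918). Gstm6 rose in distal organoids from 0.900 to 2.52 to 3.06 to 6.63 FPKM (0.82 ± 0.28, adjusted p = 0.0197), a call lost without distal control replicate 3 or differentiation replicate 1 (adjusted p 0.115 to 0.119). Gstm5 passed in distal organoids only with the replicate number as a block (adjusted p = 0.0495, against 0.0798 without it). Gstm2 had group means of 9.31 to 14.9 FPKM, Gstm4 of 4.45 to 7.16 and Gstm7 of 0.598 to 2.28, with no call between the media.

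Pi class enzymes are abundant detoxifying transferases of epithelia. Gstp1 stood at 108, 88.6 and 79.7 FPKM in proximal control libraries 1, 2 and 3, at 109, 107 and 93.2 for mid and at 104, 98.7 and 82 for distal control. Its differentiation levels were 145, 205 and 173 FPKM for proximal, 127, 124 and 112 for mid and 204, 96.1 and 97.5 for distal libraries. Gstp1 rose in proximal organoids (0.91 ± 0.23, adjusted p = 0.00388), where the media did not overlap, and differed by 0.22 ± 0.23, adjusted p = 0.415 in mid and 0.39 ± 0.23, adjusted p = 0.148 in distal ones. Gstp2, which shares much of its sequence with Gstp1, rose in all 3 regions, by 1.39 ± 0.28, 1.12 ± 0.28 and 1.22 ± 0.28 (adjusted p at most 0.00275), to means of 22.1 to 34.3 FPKM. Under control medium, Gstp3 read 9.49, 16.6 and 13.4 FPKM (proximal), 10.1, 12 and 10.8 (mid) and 22.8, 9.11 and 10.7 (distal). Under differentiation medium the readings were 10.2, 12.5 and 11.6 (proximal), 2.82, 4.42 and 3.54 (mid) and 3.97, 2.46 and 4.06 FPKM (distal). Gstp3 fell in mid (-1.40 ± 0.27, adjusted p = 0.000332) and distal organoids (-1.67 ± 0.27, adjusted p = 7.63e-05) with no overlap, and its proximal media overlapped (-0.16 ± 0.27, adjusted p = 0.639).

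The theta, omega, kappa and zeta classes come next. Control libraries held Gstt3 at 8.04, 7.25 and 5.83 FPKM when proximal, 11.6, 9.93 and 8.15 when mid and 9.59, 17.5 and 9.03 when distal. Differentiation libraries held it at 11.8, 11.2 and 13 (proximal), 19, 17.7 and 14.5 (mid) and 20.4, 21.3 and 17.9 FPKM (distal). Gstt3, the most abundant theta gene, was higher in differentiation medium in all regions, by 0.70 ± 0.20, adjusted p = 0.00772 in proximal, 0.73 ± 0.20 (adjusted p = 0.00451) in mid and 0.73 ± 0.20 (adjusted p = 0.00456) in distal organoids. These 3 calls were lost when scaled to summed reads (adjusted p = 0.113, 0.193 and 0.229). Gstt1, which acts on small halogenated compounds, went from 1.68 to 4.68 to 6.03 to 9.44 FPKM in mid (1.29 ± 0.46, adjusted p = 0.023) and from 1.54 to 5.74 to 5.21 to 22.9 in distal libraries (1.31 ± 0.46, adjusted p = 0.0218). Those calls were lost without mid control replicate 2 or 3 or mid differentiation replicate 1 or 3 (adjusted p 0.0543 to 0.0860), and without distal control replicate 3 or distal differentiation replicate 1 (0.113 to 0.140).

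Gsto1, an omega class enzyme that reduces dehydroascorbate and mixed disulfides, was among the most abundant genes of the set. For Gsto1, the proximal controls gave 178, 195 and 185 FPKM, the mid controls 223, 221 and 223 and the distal controls 252, 256 and 189. With differentiation medium, proximal libraries gave 317, 286 and 289 FPKM, mid libraries 503, 531 and 393 and distal libraries 273, 386 and 466. The media did not overlap in any region, and it rose by 0.68 ± 0.17, adjusted p = 0.00449 in proximal, 1.08 ± 0.17 (adjusted p = 7.78e-05) in mid and 0.67 ± 0.17 (adjusted p = 0.00371) in distal organoids. The proximal and distal calls were lost when scaled to summed reads (adjusted p = 0.180 and 0.412). Gsto2 stayed at 2.46 FPKM or below, with rises of 0.71 ± 0.26, 0.71 ± 0.26 and 0.79 ± 0.26 (adjusted p 0.0166 to 0.0331). It passed the filter through differentiation libraries, so these rises are a description. Leaving out any of 11 single libraries ended one of these Gsto2 calls: proximal control 1 or 3, proximal differentiation 2 or 3, any mid control, mid differentiation 1 or 3, distal control 2 or distal differentiation 1 (adjusted p 0.0534 to 0.172). Gstk1, found in mitochondria and peroxisomes, rose from 8.80 to 28 FPKM in proximal organoids (1.55 ± 0.19, adjusted p = 1.28e-05), and by 1.38 ± 0.19 and 1.04 ± 0.19 in mid and distal ones (adjusted p at most 0.000233). Gstz1, maleylacetoacetate isomerase of tyrosine breakdown, went from 4.27 to 4.95 to 2.64 to 3.57 FPKM in mid organoids (-0.41 ± 0.12, adjusted p = 0.00743) and stayed within 3.51 to 5.35 in the other groups.

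The membrane-bound transferases also split. Levels of Mgst3 without differentiation were 80.7, 58 and 57.7 FPKM (proximal), 90.4, 109.8 and 112 (mid) and 87.4, 59.9 and 103 (distal). After differentiation they were 240.3, 334 and 323 (proximal), 577, 522 and 522 (mid) and 688, 584 and 491 FPKM (distal). Mgst3, a glutathione peroxidase and transferase of internal membranes, rose with no overlap of the media, by 2.18 ± 0.20, adjusted p = 8.4e-07 in proximal, 2.37 ± 0.20 (adjusted p = 1.89e-07) in mid and 2.82 ± 0.20 (adjusted p = 3.9e-08) in distal organoids. Mgst2, which can make leukotriene C4, rose from 14.9 to 62.1, from 12.2 to 85.2 and from 11.9 to 76 FPKM in proximal, mid and distal organoids (adjusted p at most 2.25e-07). Mgst1 stood at 7.86, 9.70 and 10.5 FPKM in proximal control libraries 1, 2 and 3, at 5.37, 4.54 and 3.74 for mid and at 2.69, 1.95 and 1.11 for distal control. Its differentiation levels were 16.2, 10.3 and 10.5 FPKM for proximal, 2.93, 2.80 and 1.60 for mid and 0.409, 0.541 and 1.76 for distal libraries. Mgst1 was lower in differentiation medium in mid (-0.70 ± 0.27, adjusted p = 0.0309) and distal organoids (-0.65 ± 0.27, adjusted p = 0.0454), where the distal media overlapped. With the replicate number as a block the distal call was lost (adjusted p = 0.0549). The mid call is lost without mid control replicate 1 or 2 or mid differentiation replicate 3 (adjusted p 0.0663 to 0.141). The distal call is lost when any of 11 libraries is left out (proximal control 2 or 3, proximal differentiation 3, mid control 1 or 2, mid differentiation 1 or 2, distal control 1 or 2, distal differentiation 1 or 2; adjusted p 0.0501 to 0.185).

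The second question was how proximal and distal organoids differ in the same medium. In control medium 4 of the 43 genes were higher and 1 lower in distal organoids, where 5.57% of tested genes were higher and 4.98% lower. These counts are near the shares over tested genes and are no result about the set. Mgst1, a membrane-bound transferase of the endoplasmic reticulum and mitochondria, was lower at 1.92 against 9.37 FPKM (-1.86 ± 0.27, adjusted p = 0.000193), with mid libraries between both and no overlap of the 3 regions. Gsta5 was higher (1.02 ± 0.20, adjusted p = 0.00256). Under control medium, Gstt2 read 3.53, 1.85 and 1.70 FPKM (proximal), 7.76, 6.90 and 5.35 (mid) and 6.61, 6.12 and 4.19 (distal). Under differentiation medium the readings were 2.42, 2.55 and 2.47 (proximal), 6.60, 4.89 and 6.87 (mid) and 11.3, 6.55 and 6.29 FPKM (distal). Distal and proximal values of this theta class gene did not overlap in either medium, and the control difference was 1 ± 0.23, adjusted p = 0.00912. Control libraries held Gstm5 at 12.6, 7.57 and 8.04 FPKM when proximal, 18.3, 15.3 and 13.9 when mid and 20.0, 19.8 and 14.5 when distal. Differentiation libraries held it at 7.26, 9.12 and 9.75 (proximal), 16.1, 12.4 and 15.1 (mid) and 34.8, 21.9 and 19.9 FPKM (distal). Gstm5, a mu class gene, showed the same order, with a control difference of 0.90 ± 0.21, adjusted p = 0.0127, and Gstt3 one of 0.65 ± 0.20, adjusted p = 0.0477.

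The control calls of Mgst1 and Gsta5 were kept whichever 1 library was left out, and the other 3 were not. The count of higher genes was 1 without proximal control replicate 2 or without replicate 3, 2 without distal control replicate 2 and 7 without distal control replicate 3. Gstt2 lost its call without proximal control replicate 2 or 3 (adjusted p 0.0527 to 0.0560), and Gstm5 without either of those or distal control replicate 1 or 2 (0.0537 to 0.0738). Gstt3 lost it in 14 of 18 fits with 1 library left out (0.0512 to 0.211), among them the fit without proximal differentiation replicate 1 (0.0515). Fitted with only the 6 libraries compared, 0 genes were called higher.

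In differentiation medium 13 of 43 were higher and 12 lower in distal organoids, where 15.6% of tested genes were higher and 14.3% lower. The median difference of the 43 was 0.30, against 0.00 over tested genes. Scaled to summed reads, 11 were higher and 15 lower, with the higher share over tested genes moving from 52.2% to 37.9% and their median to -0.10. Without proximal differentiation replicate 1, 12 were higher and 12 lower. Leaving out Ugt2b5 and Ugt2b36, which passed the filter through proximal differentiation libraries alone, 13 of 41 were higher and 10 lower.

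By family, 4 of 6 Ces2 genes and 5 of 7 Gstm genes were higher in distal organoids and 0 were lower, and 5 of 5 Gsta genes were lower. Over tested genes the shares were 15.6% higher and 14.3% lower. Of the Ces2 genes, Ces2a mean level was 9.19 times the proximal one (3.18 ± 0.27, adjusted p = 3.26e-07) and Ces2b 4.01 times (1.56 ± 0.19, adjusted p = 1.67e-05). Ces2g differed by 1.34 ± 0.29, adjusted p = 0.00228 and Ces2c by 1.24 ± 0.41, adjusted p = 0.0337. The Ces2c call was lost without proximal differentiation replicate 1 (adjusted p = 0.101) or 3 or distal differentiation replicate 1 or 2 (0.0827 to 0.148). Ces2e, whose regions overlapped, differed by 0.49 ± 0.53, adjusted p = 0.53.

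Gstm1 was higher in distal than in proximal differentiation medium at 67.5 against 20.4 FPKM with no overlap (2 ± 0.57, adjusted p = 0.0146). Its call was lost without proximal differentiation replicate 2 or 3 or distal differentiation replicate 2 (adjusted p 0.0518 to 0.0748). Gstm3 was higher too (1.66 ± 0.47, adjusted p = 0.0138), a call lost without proximal differentiation replicate 3 or distal differentiation replicate 1 (0.0522 to 0.0658). Gstm5 (1.42 ± 0.21, adjusted p = 0.000132), Gstm7 (1.06 ± 0.25, adjusted p = 0.00515) and Gstm6 (0.88 ± 0.28, adjusted p = 0.0276) were the other mu class genes called, and Gstm6 was lost without proximal differentiation replicate 2 or 3 or distal differentiation replicate 1 (0.0588 to 0.136). Without proximal differentiation replicate 1, Gstm2 passed as well (adjusted p = 0.0486). The other higher calls were Gstt2 (1.33 ± 0.23, adjusted p = 0.000407), Gstt3, Mgst3 (0.97 ± 0.20, adjusted p = 0.00176) and Sult1b1 (1.25 ± 0.34, adjusted p = 0.011). The call of Sult1b1 was lost without proximal differentiation replicate 1 (0.0516) or distal differentiation replicate 1 (0.0537), and that of Gstt3 (0.68 ± 0.20, adjusted p = 0.0165) without proximal or distal differentiation replicate 2 (0.0520 to 0.0610).

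Lower in distal differentiation medium were Mgst1, the alpha class and some others. Mgst1 was at 0.904 FPKM in distal and 12.3 in proximal libraries, a proximal mean 13.7 times the distal one (-2.85 ± 0.27, adjusted p = 1.05e-06). Gsta1 (-1.95 ± 0.29, adjusted p = 0.000131), Gsta3 (-1.84 ± 0.42, adjusted p = 0.00402), Gsta2 (-1.67 ± 0.39, adjusted p = 0.00416), Gsta4 (-1.65 ± 0.22, adjusted p = 3.68e-05) and Gsta5 (-0.78 ± 0.20, adjusted p = 0.00709) were all lower. The proximal means were 3.67 times the distal mean for Gsta1, 4.16 times for Gsta2 and 3.05 times for Gsta4. Ugt1a1 (-1.45 ± 0.30, adjusted p = 0.00194) and Ugt1a6a (-0.70 ± 0.17, adjusted p = 0.00468) were lower among the glucuronosyltransferases. Ugt2b36 and Ugt2b5, whose direction the filter fixed, stood at differences of -1.80 ± 0.17 and -1.65 ± 0.11. The last 2 of the 12 were Gstp3 (-1.48 ± 0.27, adjusted p = 0.000639) and Gstk1 (-0.86 ± 0.19, adjusted p = 0.00306).

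Markers of small intestine also differed between the regions. The summed FPKM of Sis, Fabp2, Apoa4 and Lct was 107 to 226 in proximal, 53.7 to 83.5 in mid and 17.2 to 24.7 in distal differentiation libraries. In control libraries it was 21.4 to 26.4, 2.93 to 5.11 and 0.693 to 2.20. Fabp2, a fatty acid binding protein, supplied most of that sum in proximal libraries, where Sis, the sucrase-isomaltase that defines small intestinal enterocytes, was at 3.55 to 6.75 FPKM in differentiation medium. In mid and distal libraries Sis did not exceed 0.501 FPKM, while Lct was at most 0.0479 in every library. Apoa4, an apolipoprotein of small intestinal enterocytes, ran the other way, at 0.404 to 1.06 FPKM in proximal, 0.864 to 4.61 in mid and 3.47 to 13.2 in distal differentiation libraries and 0 in every control library. The liver markers Alb, Apoa2, Ttr and Cyp2e1 summed to 0.262 to 7.33, with Alb at most 1.21. The part of small intestinal cells or programs in the higher proximal Gsta, Ugt2b and Ugt1a1 levels was not tested.

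Of the 5 colonocyte markers, Aqp8, Car4 and Slc26a3 had lower proximal means, as Ces2a and Ces2b did. In differentiation medium Aqp8, a water channel of surface colonocytes, averaged 0.400 ± 0.208 FPKM in proximal, 3078 ± 955 in mid and 4089.9 ± 2012 in distal libraries (SD, n = 3). Car4, a membrane carbonic anhydrase, averaged 0.994 ± 0.624, 347 ± 102 and 235 ± 65.2 FPKM in that order, and Slc26a3, the chloride and bicarbonate exchanger, 31.3 ± 14, 536 ± 47.7 and 555 ± 98. Car1 was at 18982 ± 5676, 13418 ± 755 and 12775 ± 1632 FPKM and Krt20 at 696 ± 159, 758 ± 161 and 656 ± 167. Aqp8 was thus near 0 in proximal differentiation libraries while Car1 and Krt20 were high there, and the part of these cells in the regional Ces2 differences was not tested.

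The third question was whether the response to differentiation medium differs between proximal and distal organoids, tested as an interaction. Of the 43 genes, 2 responded more strongly upwards in distal organoids (4.16% of tested genes) and 7 had a lower response there (4.09%). Scaled to summed reads the counts were 2 and 9, with the higher share over tested genes moving from 50.4% to 34.2% and the median over tested genes to -0.11. Without Ugt2b5 and Ugt2b36 the counts were 2 and 5 of 41. Ces2a responded more in distal organoids by 2.73 ± 0.38, adjusted p = 0.00038 on the log2 scale, and Ces2b by 1.27 ± 0.27, adjusted p = 0.00852. With 0.1 in place of 1 added to each FPKM, the Ces2b difference was 1.02 and lost its call (adjusted p = 0.304).

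Of 5 alpha class genes, 4 had a lower response in distal organoids: Gsta4 (-1.96 ± 0.31, adjusted p = 0.000959), Gsta5 (-1.80 ± 0.28, adjusted p = 0.000836), Gsta1 (-1.68 ± 0.41, adjusted p = 0.0213) and Gsta3 (-2.16 ± 0.60, adjusted p = 0.0385). Over tested genes the share with a lower response was 4.09%. Gsta2 had a difference of like size that missed the threshold (-1.79 ± 0.55, adjusted p = 0.0577) and passed it without proximal differentiation replicate 1 (adjusted p = 0.0265). Gsta3 lost its call without that library (0.0788), and in 12 of 18 fits with 1 library left out (0.0507 to 0.103). Gsta1 lost it without proximal control replicate 2 or distal control replicate 1 (0.0520 to 0.0642). Gstp3 (-1.51 ± 0.38, adjusted p = 0.0236) was the fifth, and its call was lost without distal differentiation replicate 2 (0.0671). The other two of the 7 were Ugt2b36 (-1.65 ± 0.24) and Ugt2b5 (-1.62 ± 0.16), values given as a description. Between the media, Gsta4 had been called in proximal but not in distal organoids, and Gstp3 in distal but not in proximal ones.

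Mid organoids were placed by a pair of comparisons added after the values had been seen. In differentiation medium 11 of 43 genes were higher and 14 lower in mid than in proximal organoids (15.6% and 13.7% of tested genes), and 11 and 12 of 41 without Ugt2b5 and Ugt2b36. Without mid differentiation replicate 1 the higher count was 7, and without proximal differentiation replicate 1 it was 8. Scaled to summed reads, the higher share over tested genes moved from 53.3% to 38.2% and their median to -0.10. Ces2a was higher by 3.04 ± 0.27, adjusted p = 6.06e-07 and Ces2b by 2.20 ± 0.19, adjusted p = 4.72e-07, while Gsta1 (-2.40 ± 0.29, adjusted p = 2.01e-05) and Gsta4 (-2.30 ± 0.22, adjusted p = 1.25e-06) were lower. Between distal and mid differentiation medium, 0 genes were called in either direction by limma (0.209% of tested genes higher, 0.481% lower), and 5 were higher and 4 lower at an unadjusted p below 0.05. Ces2b had non-overlapping values in that comparison, 11.1 to 12.8 FPKM in mid and 5.92 to 9.34 in distal libraries, and did not pass (-0.65 ± 0.19, adjusted p = 0.185). These comparisons share the mid or proximal libraries and are not independent.

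The supply of the conjugating groups, and for glutathione also its breakdown, was described from lists of genes. Some listed genes here and below passed the filter only with libraries of a single medium counted, which favours a higher level there. The lists were not recounted without them. All lists, here and below, were chosen with earlier results of these data known, so a count above the background is a description. Each count is to be read against the share of all tested genes called in the same direction, which for the proximal comparison was 27.6% higher and 26.2% lower, for the mid one 31.5% and 32.0%, and for the distal one 31.6% and 31.3%. All 5 genes of UDP-glucuronate supply and use were called in each region, 4 higher in differentiation medium and 1, the lysosomal beta-glucuronidase Gusb, lower. Ugdh, which makes UDP-glucuronate, went from 21.4 ± 5.02 to 149 ± 33.6 FPKM (proximal), 13.9 ± 1.31 to 131 ± 17.3 (mid) and 11.3 ± 1.94 to 92 ± 13 (distal; SD, n = 3). Its rises were 2.74 ± 0.19, adjusted p = 7.03e-08 in proximal, 3.14 ± 0.19 in mid (adjusted p = 7.74e-09) and 2.92 ± 0.19 in distal organoids (adjusted p = 1.74e-08). Ugp2, which makes UDP-glucose, and Slc35b1, a nucleotide carrier of the endoplasmic reticulum, rose in all 3 regions by 1.26 to 1.47 and 0.84 to 1.35.

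For sulfation, 5, 4 and 4 of 7 tested PAPS supply genes were higher in proximal, mid and distal differentiation medium and 0, 1 and 1 lower (background 27.6%, 31.5% and 31.6% higher). Slc26a2, the sulfate transporter, rose from 15.3 ± 3.43 to 61.9 ± 9.42 FPKM in proximal and from 20.3 ± 8.98 to 293 ± 43.8 in distal organoids, by 1.96 ± 0.26, adjusted p = 2.22e-05 and 3.86 ± 0.26, adjusted p = 1.88e-08. The PAPS synthases Papss2 (2.74 ± 0.26, adjusted p = 9.69e-07 in proximal, 1.93 ± 0.26, adjusted p = 1.45e-05 in distal) and Papss1 (1.25 ± 0.11 and 0.85 ± 0.11) rose as well.

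For glutathione, 9 of 13 tested genes of supply and breakdown were higher and 1 lower in proximal organoids, and 5 higher and 3 lower in both mid and distal ones. The list joins enzymes of synthesis and of breakdown, so its counts do not measure glutathione supply. Of tested genes, 27.6% were higher and 26.2% lower in the proximal comparison. The mid and distal shares were near the background of 31.5% and 32.0%, and of 31.6% and 31.3%, and are no result about these genes. The medians were 0.53, 0.19 and 0.06, and scaled to summed reads the mid and distal medians turned negative, at -0.21 and -0.35. Gclc, the limiting enzyme of glutathione synthesis, rose by 1.86 ± 0.25, adjusted p = 3.37e-05 in proximal, 0.82 ± 0.25 (adjusted p = 0.0102) in mid and 0.60 ± 0.25 (adjusted p = 0.0483) in distal organoids. Gsr, glutathione reductase, rose in proximal (0.35 ± 0.11, adjusted p = 0.0167) and fell in mid (-0.84 ± 0.11, adjusted p = 1.36e-05) and distal organoids (-0.62 ± 0.11, adjusted p = 0.000216). Dpep1, a dipeptidase that breaks down glutathione products, went from 0.599 ± 0.262 to 76.4 ± 30.1 FPKM in proximal organoids (5.53 ± 0.47, adjusted p = 4.19e-07). Dpep1 and Ggt1 passed the filter only with differentiation libraries counted, and Ggct only with control libraries counted. The rise of Dpep1 is therefore a description, and the counts of the list include these genes. In the interaction 0 of the 13 were higher and 4 lower in distal organoids (4.16% and 4.09% of tested genes).

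Targets of Nrf2, the transcription factor that induces many Gst genes under electrophile stress, were 11 higher and 1 lower of 16 in proximal organoids, 5 and 5 in mid, and 4 and 6 in distal ones. Against 27.6% and 26.2% of tested genes in the proximal comparison and 31.5% and 32.0%, and 31.6% and 31.3%, in the mid and distal ones, the mid and distal counts are near the background and no result about the list. In distal against proximal differentiation medium 0 were higher and 9 lower (15.6% and 14.3% of tested genes), and in the interaction 0 and 7 (4.16% and 4.09%; 0 and 8, and 0 and 7, without proximal differentiation replicate 1). The medians between the media were 0.75, -0.09 and 0.02 and, scaled to summed reads, 0.43, -0.51 and -0.42. Nqo1, a quinone reductase, was at 12.6 ± 7.66 and 47.2 ± 16.4 FPKM in proximal control and differentiation libraries (1.90 ± 0.36, adjusted p = 0.000458), and at 14.4 ± 5.09 and 14.7 ± 5.80 in distal ones (0.01 ± 0.36, adjusted p = 0.981). Fth1, the ferritin heavy chain, rose in all regions by 1.87 to 1.97, Ftl1 in proximal (1.01 ± 0.24, adjusted p = 0.00268) and mid organoids (0.61 ± 0.24, adjusted p = 0.0387), and Prdx1, a peroxiredoxin, fell in mid (-0.69 ± 0.12, adjusted p = 0.000125) and distal ones (-0.46 ± 0.12, adjusted p = 0.00297). Gclc, Gclm and Slc7a11 stand in both this and the glutathione list. Nfe2l2, which encodes Nrf2, rose in each region, by 0.57 ± 0.13, 0.65 ± 0.13 and 0.46 ± 0.13, and was lower in distal than in proximal differentiation medium (-1 ± 0.13, adjusted p = 3.14e-05).

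**Figure D5:**
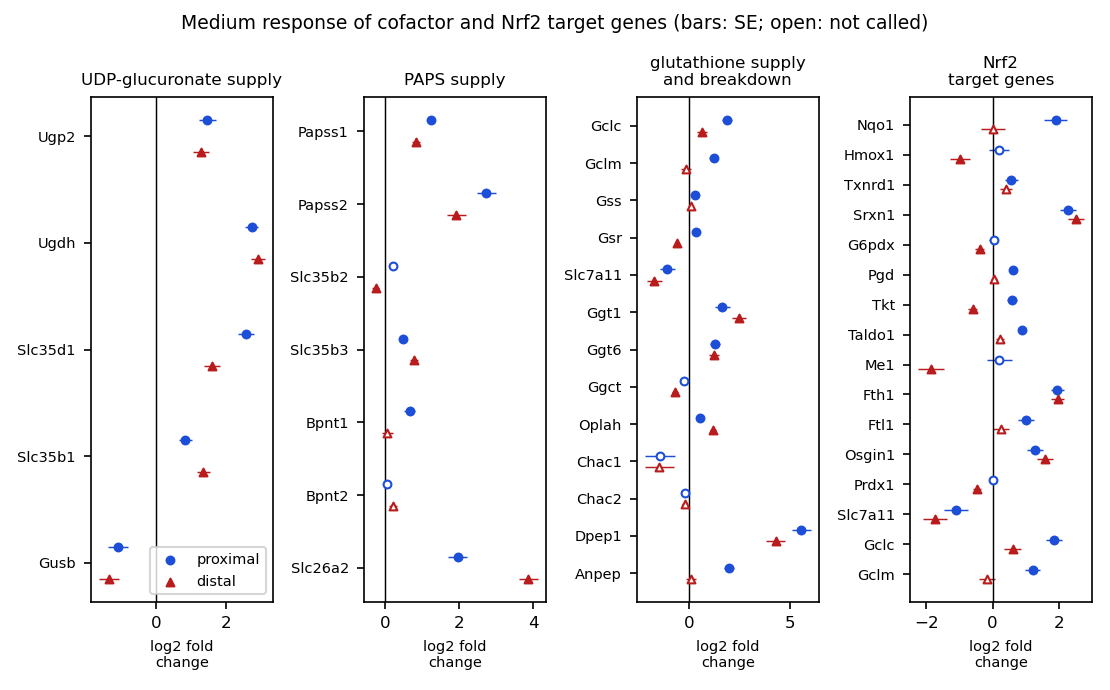
Log2 fold change of differentiation over control medium, on log2(FPKM + 1), for the tested genes of 4 lists in proximal (circles) and distal (triangles) organoids; bars are SE, filled symbols are called and open ones are not, and each panel has its own axis range. Nqo1, Gclc, Gclm and Anpep lie further right in proximal than in distal organoids, and Slc26a2 further right in distal ones.

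The other gene lists around these enzymes gave mixed counts. Of 9 export pumps and carriers, 6 were higher and 2 lower in proximal, and 5 and 1 in both mid and distal organoids, with 27.6%, 31.5% and 31.6% of tested genes higher in the 3 comparisons. Abcc2 among the 9 passed the filter through differentiation libraries, so these counts are a description. Abcb1a, the P-glycoprotein drug pump, reached 315 ± 54.6, 840.2 ± 28.5 and 692 ± 77.5 FPKM in proximal, mid and distal differentiation medium from control means of 31.2 to 42.0 (SD, n = 3). Its rises were 3.17 ± 0.15, adjusted p = 2.92e-09, 4.29 ± 0.15, adjusted p = 4.51e-11 and 4.44 ± 0.15, adjusted p = 4.65e-11. Abcc3, a basolateral pump for glucuronides, rose by 1.77 ± 0.16, 1.85 ± 0.16 and 1.33 ± 0.16 and was lower in distal than in proximal differentiation medium (-0.85 ± 0.16, adjusted p = 0.00075), and Slc22a18 rose by 1.95 to 2.28.

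Of 7 other hydrolases, 6, 6 and 1 were higher in proximal, mid and distal differentiation medium and 0 lower (27.6%, 31.5% and 31.6% of tested genes higher). When scaled to summed reads the counts were 3, 3 and 1 higher, with 2 lower in distal organoids, and without proximal differentiation replicate 1 the distal count was 2 higher. Ephx2, the soluble epoxide hydrolase, rose in all regions, by 1.65 ± 0.34, 2.91 ± 0.34 and 3.06 ± 0.34, while Ephx1, the microsomal one, rose in proximal organoids (0.89 ± 0.27, adjusted p = 0.0126) and differed by 0.20 ± 0.27, adjusted p = 0.533 in distal ones. Pon2, a lactonase, rose in proximal (0.34 ± 0.12, adjusted p = 0.0273) and mid organoids (0.51 ± 0.12, adjusted p = 0.00158). Among other conjugating enzymes, Nat2, an arylamine acetyltransferase, rose in all regions by 1.21 to 1.72, while As3mt, the arsenic methyltransferase, fell in proximal organoids (-0.81 ± 0.29, adjusted p = 0.0279).

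Of 4 tested targets of the aryl hydrocarbon receptor, 2, 1 and 1 were higher and 1, 1 and 2 lower, counts too near 27.6% to 31.6% higher and 26.2% to 32.0% lower over tested genes to be a result about 4 genes. Nqo1 is one of them, Tiparp rose in all regions by 0.54 to 0.99, and Cyp1b1 fell from 2.02 ± 0.439 to 0.0805 ± 0.0776 FPKM in proximal organoids (-1.48 ± 0.17, adjusted p = 6.18e-06). The mean of Cyp1b1 was 0.498 FPKM or below in every other group. It passed the filter through proximal control libraries alone, so its fall was fixed by the filter and is a description. Aldh3a1 passed the filter only with control libraries counted. Of 12 xenobiotic sensors and regulators, 9, 9 and 8 were higher and 2 lower in each region (27.6%, 31.5% and 31.6% of tested genes higher). Nr1i3 and Ppara among the 12 passed the filter through differentiation libraries, with control means of at most 0.0291 and 0.303 FPKM. These counts are therefore a description. Hnf4a, a regulator of enterocyte and hepatocyte genes, rose by 1.89 ± 0.20, adjusted p = 3.84e-06, 1.48 ± 0.20 and 1.81 ± 0.20 in proximal, mid and distal organoids, and its distal and proximal differentiation levels did not pass the test of their difference (0.33 ± 0.20, adjusted p = 0.242). Cdx2, an intestinal identity factor, rose by 1.38 ± 0.24, 1.04 ± 0.24 and 1.30 ± 0.24 and was lower in distal than in proximal differentiation medium (-2.11 ± 0.24, adjusted p = 9.96e-06).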

How the data were processed

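RNA-seq of 18 mouse colon organoid libraries was used, 3 for each of 3 regions and 2 media. The authors deposited FPKM per gene with gene lengths and mm39 coordinates. HISAT2 2.0.5 and featureCounts 1.5.0-p3 are named in the submitters' processing notes. The annotation release, library scaling and handling of reads shared between genes are not given in the sources used here. FPKM times gene length gave whole multiples of 1 read (tolerance 0.001) for 100% of values, which set the depth of 12827751 to 19938198 reads per library. Recovered reads over the library size behind FPKM were 0.831 to 0.873 in control and 0.959 to 1.32 in differentiation libraries. The scaling thus went with the medium, and FPKM folds and sums between the media carry it.

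Genes were tested with limma 3.58.1 (R 4.3.3) on log2(FPKM + 1), with 6 group means over all 18 libraries, an intensity trend and Benjamini-Hochberg adjustment over the 12896 genes that reached 1 FPKM in 3 or more libraries. The threshold was 0.05. The fit was tested on simulated data. The members and lists were chosen with earlier results of these data known. Genes given in every library were those a rule fixed in the design picked by size of change and level, and every other described gene is given by its range, mean or call. Alternatives were a pseudocount of 0.1, no filter, a minimum of 5 FPKM, scaling to summed reads, median-of-ratios scaling, only the groups compared, a replicate block and leaving out each library. Replicate numbers come from the sample titles. Same-numbered control and differentiation libraries deviated together in distal organoids, with correlations of 0.118, 0.223 and 0.158, so the blocked value is given where it changes a distal call between the media. The correlations were 0.165, 0.0335 and 0.170 in proximal and 0.259, 0.0429 and 0.249 in mid organoids, which did not all exceed 0.1. Blocked counts for these regions are given at the end. The 6 deposited group means were not tested. No protein sequence was used. The counts of the list of other conjugating enzymes are not reported here.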

Additional observations from a re-analysis of the deposited data

Results flagged for a closer look

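For 9 genes the response to differentiation medium differed between distal and proximal organoids by limma's interaction test on log2(FPKM + 1), with 3 libraries in each group. Of tested genes, 4.16% had a higher and 4.09% a lower response in distal organoids, and the higher count, 2 of 43, is near its share. The response was larger in distal organoids by 2.73 for Ces2a and 1.27 for Ces2b. It was lower there, with differences of -2.16 for Gsta3, -1.96 for Gsta4, -1.80 for Gsta5, -1.68 for Gsta1, -1.65 for Ugt2b36, -1.62 for Ugt2b5 and -1.51 for Gstp3. Ugt2b36 and Ugt2b5 reached 1 FPKM in proximal differentiation libraries alone, so their direction was fixed by the filter on low values. The Ces2b call was lost with a pseudocount of 0.1, and that of Gsta3 in 12 of 18 fits with 1 library left out. Gsta1 and Gstp3 also lost their calls in at least 1 such fit.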

How the results depend on the processing

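Of the 150 calls of described genes over the 8 comparisons, 34 were lost with at least 1 library left out and 40 under at least 1 other alternative, 48 under either, and 0 changed direction. Medians of lists did change sign: scaled to summed reads, the mid and distal glutathione medians between the media turned to -0.21 and -0.35, the distal Nrf2 median to -0.42 and the distal hydrolase median to -0.13, and the family medians to -0.35 (mu class, mid), -0.21 (pi class, mid) and -0.06 (pi class, distal). Without proximal differentiation replicate 1 they turned to 0.04 (mu class, proximal) and -0.13 (Sult, mid against proximal differentiation medium). Counts of the 43 genes moved as follows. In proximal organoids the lower count between the media was 1 when scaled to summed reads and 1 with the replicate block, and 0 to 2 with a library left out (2 without proximal differentiation replicate 1). In control medium the count higher in distal organoids was 0 with only the groups compared and 1 to 7 with a library left out, and the lower count was 2 with a pseudocount of 0.1. In the interaction the higher count was 1 with a pseudocount of 0.1, 4 with the replicate block and 2 to 4 with a library left out (4 without distal control replicate 1). The lower count was 4 with no filter, 4 with only the groups compared and 5 to 9 with a library left out. The count higher in mid than in proximal differentiation medium was 7 to 13 with a library left out. Between distal and mid differentiation medium the higher count was 0 to 1 with a library left out (1 without distal control replicate 1 or 3 or distal differentiation replicate 2). The lower count was 1 with no filter and 0 to 1 with a library left out (1 without distal differentiation replicate 3). The cause of these moves was not tested. Over all groups, deviations of same-numbered libraries correlated at -0.387 to 0.542, over 0.1 in 23 of 45 pairs, and 10 of 18 libraries correlated best with their own number. With the replicate block the distal counts between the media were 27 higher and 2 lower and the count higher in distal control medium 6. The blocked counts between the media were 28 higher and 1 lower in proximal and 28 and 4 in mid organoids. Blocked, 15 genes were higher in mid than in proximal differentiation medium. The minimum of 5 FPKM left 34 of the 43 genes. Depth limits genes listed at 0 in a group, such as Ces1d and Ugt2b5 in distal control medium.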
